A study of Mus musculus with 6 samples.

Results

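The genes described here make fatty acids from acetyl-CoA, lengthen them and put double bonds into them. They are Srebf1, Acaca, Fasn, Scd1, Scd2, Elovl5, Elovl6, Fads1, Fads2 and Fads3, picked by gene symbol, and all 10 were among the 20588 genes of the deposited table. Their mRNA was measured by sequencing polyadenylated RNA of cultured mouse muscle stem cells, also called satellite cells, from which muscle fibres are repaired. There were 3 wild-type (WT) libraries and 3 libraries of genotype Pnpla2PKO (PKO), in which Pnpla2 is knocked out. Pnpla2 encodes adipose triglyceride lipase, which releases fatty acids from triglyceride stored in lipid droplets. Both groups were of strain C57BL/6NJ and aged 2 months. In both, cells sorted by flow cytometry from hind limb muscle were grown for 7 days and then held in medium with 2% horse serum for 16 h. Which Cre line or promoter drove the deletion, and whether a library is 1 animal or a pool, is not given in the sources used here. P-values therefore describe the spread among these libraries, part of which may be technical.

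Fatty acid synthesis starts with acetyl-CoA carboxylase (Acaca), which makes malonyl-CoA, and fatty acid synthase (Fasn), which builds palmitate from it. Elongases (Elovl5, Elovl6) add carbon pairs, stearoyl-CoA desaturases (Scd1, Scd2) make monounsaturated fatty acids, and front-end desaturases (Fads1, Fads2) make polyunsaturated ones. Srebf1 encodes SREBP-1, the transcription factor that drives most of these genes and is itself held back by polyunsaturated fatty acids and induced through the oxysterol receptor LXR.

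The stretches before the start sites of 3 of these genes are shown because Srebf1 is the regulator of the pathway, Fasn is its textbook target, and Srebf1 and Fads3 are among the genes whose PKO and WT libraries did not overlap. Each run is the 250 bases before a RefSeq transcript start (GRCm38.p6), written 5′ to 3′ on the gene's strand. Capitals mark the letters CCAAT, the NF-Y box, and TCACCC, the first part of the sterol response element, on either strand. The Srebf1 window is chr11:60210472-60210721, minus strand, inside the Srebf1 gene and outside its annotated exons. The Fasn window is chr11:120824548-120824797, minus strand, and the Fads3 window is chr19:10041298-10041547, plus strand. Both lie just outside their genes.
Srebf1: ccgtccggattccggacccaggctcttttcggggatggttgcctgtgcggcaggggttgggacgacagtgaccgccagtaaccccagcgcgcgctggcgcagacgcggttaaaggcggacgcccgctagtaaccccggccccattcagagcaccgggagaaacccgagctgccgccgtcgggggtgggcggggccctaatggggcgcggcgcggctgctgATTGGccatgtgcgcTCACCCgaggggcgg
Fasn: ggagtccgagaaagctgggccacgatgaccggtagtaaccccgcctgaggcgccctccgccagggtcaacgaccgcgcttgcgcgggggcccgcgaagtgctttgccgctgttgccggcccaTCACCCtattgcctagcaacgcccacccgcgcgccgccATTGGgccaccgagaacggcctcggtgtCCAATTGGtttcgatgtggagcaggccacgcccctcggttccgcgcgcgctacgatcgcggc
Fads3: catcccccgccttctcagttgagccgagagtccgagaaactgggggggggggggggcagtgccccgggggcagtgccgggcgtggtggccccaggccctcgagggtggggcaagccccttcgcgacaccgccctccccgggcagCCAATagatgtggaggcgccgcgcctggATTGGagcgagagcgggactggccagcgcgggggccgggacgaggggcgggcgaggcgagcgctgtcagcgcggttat

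RefSeq windows were matched for 7 of the 10 genes, 9 windows in all, with none for Scd1, Scd2 and Fads1. CCAAT or its reverse ATTGG stood in 5 of the 9 windows (Srebf1 with 2 of its 3 windows, Fasn, Fads3 and Elovl5), against 33.8% of all 32851 windows of this length. In Fads3 the box stood 106 bases before the start and again, reversed, 78 bases before it. TCACCC or its reverse GGGTGA stood in 2 of the 9, against 13.8% of all windows. It began 128 bases before the Fasn start and 15 bases before the Srebf1 start shown. The fuller element TCACNCCAC stood in 0 of the 9 and in 1.05% of all windows. These letters were chosen with the windows in view, CCAAT and its reverse overlap in Fasn, and a match is a description of the sequence only.

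The libraries held 15580176 to 18839151 counted reads each, and each of the 10 genes had between 488 and 35135 reads in every library. Counting error was thus small beside the spread between libraries for most of the 10 genes. It was not small beside the spread of Elovl5 within PKO (695, 720 and 729 reads). Myogenic markers were abundant in all 6 libraries, with a summed level of 16730 to 18756 CPM (counts scaled to library size with TMM factors) in WT and 11304 to 15890 CPM in PKO. Myh3, Myog and Des led these sums. All 8 myogenic markers had negative log2 fold changes (median -0.48), against 51.7% of all genes tested. In 4 of the 8 every PKO library was below every WT library, against 9.7% of all genes tested. DESeq2 called 1 of the 8 lower, where it called 0.933% of all genes it tested lower. Stromal markers (12 genes) summed to 361 to 482 CPM in WT, to 639 CPM in PKO 1, and to 3169 and 1982 CPM in PKO 2 and PKO 3. The 9 stromal markers tested were all higher in PKO, and DESeq2 called 8 of them, where it called 4.73% of all genes it tested higher. Col3a1 was abundant in both groups, at 268 to 371 CPM in WT and 458 to 680 CPM in PKO. No read was counted for Dpt in the WT libraries and PKO 1, for Lum in WT 1 and PKO 1, and for Pi16 in WT 3. Of 9 adipocyte markers 5, among them Adipoq and Plin1, had no row in the table, and the other 4 summed to 1.70 to 2.84 CPM in WT and to 2.61, 5.75 and 8.72 CPM in PKO libraries 1 to 3. Among these Fabp4 was at 0.109 to 0.354 CPM in WT and at 0.320, 2.45 and 5.39 CPM in PKO libraries 1 to 3. Fabp4 was below the count filter of edgeR, and its DESeq2 adjusted p was 0.00636. Lipe, the most abundant of the 4, had means of 2.02 CPM in WT and 2.73 CPM in PKO (DESeq2 adjusted p = 0.637). Adrb3 went the other way, with means of 0.236 CPM in WT and 0.186 CPM in PKO. Lep had reads in PKO 2 only. Endothelial markers (5 genes) summed to 2.54 to 4.39 CPM in WT and to 6.87, 10.6 and 12.7 CPM in PKO libraries 1 to 3. All 5 were higher (median log2 1.52), 3 with every PKO library above every WT library, against 11.8% of all genes tested, and DESeq2 called Cdh5 and Emcn higher. Leukocyte markers (5 of 6 listed) summed to 4.71 to 5.97 CPM in WT and to 6.00 to 7.68 CPM in PKO. The part of these other cell types in the levels of the 10 genes was not tested. WT 1 stood apart from WT 2 and WT 3, with cell cycle genes (12 genes) summing to 305 CPM against 1225 and 1262 CPM, and to 339 to 443 CPM in the PKO libraries. In bulk RNA, fewer cells of a type and less mRNA per cell cannot be told apart. Pnpla2 itself was at 21.1, 38.5 and 33.7 CPM in WT libraries 1 to 3 and at 8.47, 16.0 and 15.5 CPM in PKO libraries 1 to 3 (exact two-sided permutation p = 0.1, the smallest that 3 against 3 libraries can give). Its mean in PKO was 42.8% of WT, and PKO 1 alone was at 27.2%.

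Most genes of fatty acid synthesis, elongation and desaturation had lower levels in PKO, by modest amounts that the replicate spread did not allow to be called. Of the 10 genes, 9 had a negative log2 fold change (PKO over WT), against 51.7% of all 14025 genes tested, and their median was -0.37, against -0.02 over all genes tested. Scd2, Srebf1 and Fads3 had all PKO libraries below all WT libraries, 3 of 10, against 9.7% of all genes tested. In the quasi-likelihood test of edgeR 0 of the 10 passed an adjusted p of 0.05, and so did 0% of the 14025 genes. DESeq2 and limma-voom also called 0 of the 10, where DESeq2 called 0.933% of the genes it tested lower and 4.73% higher. At an unadjusted p under 0.05 edgeR had 2 of the 10, Scd2 and Fads3, both lower, against 6.35% of all genes tested.

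WT 1 widened the spread of most of the 10 genes but not all, judged by the SE of edgeR's log2 fold change. Without WT 1 the SE fell most for Elovl6 (0.39 to 0.18), Elovl5 (0.24 to 0.12) and Fads2 (0.33 to 0.15). It fell less for Acaca (0.36 to 0.30) and rose for Srebf1 (0.116 to 0.122) and Fads3 (0.125 to 0.135). For Acaca the PKO libraries varied nearly as much as the WT libraries (SD 26.5 against 32.6 CPM). In 9 of the 10 genes WT 1 was the lowest WT library, against 41.6% of all genes tested, and in 4 of them (Elovl5, Elovl6, Fads1 and Fads2) it was the lowest of all 6 libraries, against 16.7%. All PKO libraries lay below both WT 2 and WT 3 in 9 of the 10 genes, against 24.7% of all genes tested. When WT 1 was left out, Scd2, Elovl5 and Elovl6 fell with edgeR's adjusted p under 0.05, 3 of the 10, against 3.32% of the 14557 genes then tested called lower and 3.55% called higher. The same 3 genes fell when both WT 1 and PKO 1 were left out, against 5.63% of genes called lower and 10.2% called higher. The median log2 fold change of the 10 genes was then -0.63 without WT 1 and -0.56 without both. WT 1 was the lowest WT library in 9 of these same genes, so leaving it out raised their WT means. These p-values are therefore not independent evidence of a fall. With any other single library left out, edgeR called 0 of the 10.

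**Figure D1:**
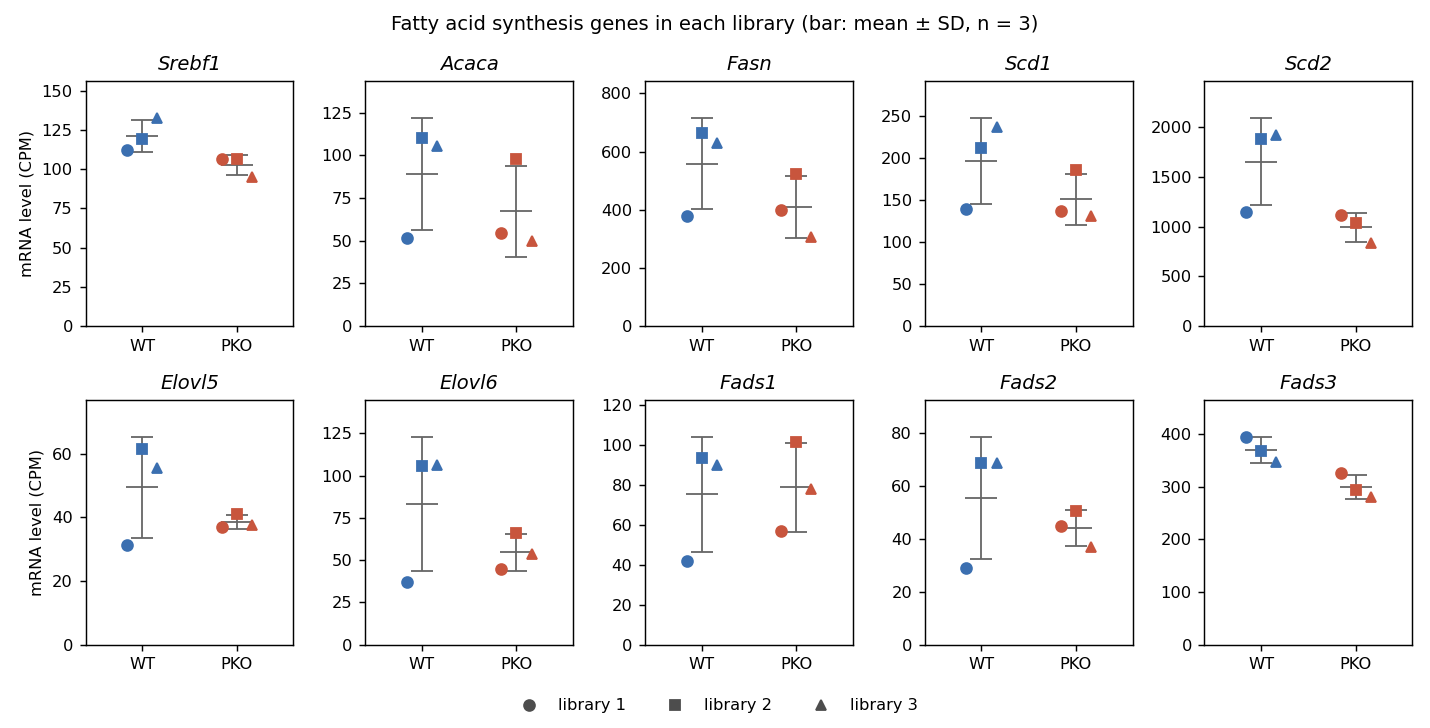
Level of each gene in CPM (linear axis from 0) in 3 WT and 3 PKO libraries, with the mean and SD of each group and a marker shape per library number. WT 1 (blue circle) lies with the PKO libraries for most genes, while Srebf1, Scd2 and Fads3 have groups that do not overlap.

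The regulator Srebf1 (ENSMUSG00000020538, chromosome 11, 60199089 to 60222581, minus strand, GRCm38) was at 112, 119 and 132 CPM in WT libraries 1 to 3. It was at 106, 106 and 95.2 CPM in PKO libraries 1 to 3. The groups did not overlap, but the gap between WT 1 and PKO 1 was only a few CPM. Its log2 fold change of -0.24 ± 0.12 (SE) had an edgeR adjusted p of 0.343. Gene counts do not separate the SREBP-1a and SREBP-1c transcripts, which start at different promoters. In the annotation, 1.93% of the exon bases of Srebf1 lie in exons of Rai1 on the opposite strand, and the strand setting of the counting is not given in the sources used here.

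Of the enzymes that make palmitate, Acaca (ENSMUSG00000020532, chromosome 11, 84129672 to 84401651, plus strand) was at 51.4, 110 and 105 CPM in WT libraries 1 to 3 and at 54.3, 97.8 and 49.7 CPM in PKO libraries 1 to 3. Its groups overlapped in part, with WT 1 close to PKO 1 and PKO 3, and PKO 2 close to but below WT 2 and WT 3. Its log2 fold change was -0.41 ± 0.36 (adjusted p = 0.589 in edgeR). Fasn (ENSMUSG00000025153, chromosome 11, 120805940 to 120824178, minus strand) was at 380, 665 and 630 CPM in WT libraries 1 to 3. In PKO libraries 1 to 3 it was at 400, 522 and 307 CPM. Again WT 1 lay among the PKO libraries and PKO 2 was the highest of these. The mean in PKO came to 73.3% of that in WT (log2 -0.45 ± 0.27, edgeR adjusted p = 0.437).

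Scd2 (ENSMUSG00000025203, chromosome 19, 44293676 to 44306864, plus strand), the stearoyl-CoA desaturase expressed widely outside the liver, gave the most reads of the 10 genes. It was at 1149, 1885 and 1923 CPM in WT libraries 1 to 3 and at 1117, 1035 and 833 CPM in PKO libraries 1 to 3. Every PKO library was below every WT library, with WT 1 only just above PKO 1. Means were 1652 ± 436 CPM for WT and 995 ± 146 CPM for PKO (SD, n = 3 each), the latter 60.2% of the former. Its log2 fold change of -0.73 ± 0.24 (SE) had an adjusted p of 0.223 with edgeR and of 0.0532 with DESeq2. Without WT 1 it was -0.94 ± 0.18 with an edgeR adjusted p of 0.0333, and without WT 1 and PKO 1 it was -1.03 ± 0.18 with an edgeR adjusted p of 0.0171. The authors' deposited table gives a log2 fold change of -0.68 and an adjusted p of 0.0521 for Scd2, and no adjusted p under 0.05 for any of the other 9 genes. With PKO 1 as the only PKO library, its spread taken from WT, the log2 fold change was -0.56 ± 0.36 (edgeR adjusted p = 0.924).

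Scd1 (ENSMUSG00000037071, chromosome 19, 44394451 to 44407709, minus strand), the desaturase best known from liver and fat, was at 140, 212 and 238 CPM in WT libraries 1 to 3. It was at 137, 186 and 131 CPM in PKO libraries 1 to 3, a range that included WT 1. Its log2 fold change was -0.38 ± 0.23, with an edgeR adjusted p of 0.435. Scd1 and Scd2 are neighbours on chromosome 19 and similar in sequence. Of the distinct stretches of 50 bases in the annotated Scd1 transcripts, 2.97% also occur in Scd2, and the longest identical stretch has 147 bases, shorter than a single read of 150 bases. A full read of 150 bases therefore cannot lie wholly inside such a stretch. How reads that partly cover one were assigned was not tested.

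**Figure D2:**
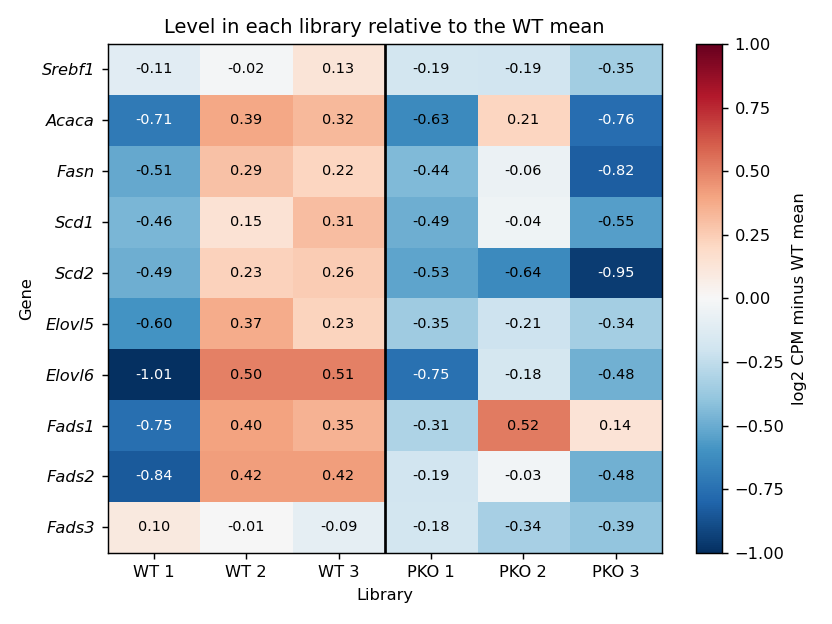
Log2 CPM of each gene (rows) in each library (columns) minus the mean of the 3 WT libraries, with the value printed in each cell. Most genes are below the WT mean in WT 1 and in all PKO libraries. Fads1 is above the WT mean in PKO 2 and PKO 3, and Acaca is above it in PKO 2.

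Both elongases were lowest in WT 1 and highest in WT 2 and WT 3. Elovl6 (ENSMUSG00000041220, chromosome 3, 129532386 to 129638495, plus strand), which lengthens palmitate, was at 37.2, 106 and 106 CPM in WT libraries 1 to 3. It was at 44.4, 66.2 and 53.6 CPM in PKO libraries 1 to 3. WT 1 was at 35.0% of the mean of WT 2 and WT 3, the lowest such share among the 10 genes. With all libraries the log2 fold change was -0.60 ± 0.39 (edgeR adjusted p = 0.462), and without WT 1 Elovl6 fell by 0.96 on the log2 scale (SE 0.18, edgeR adjusted p = 0.03). Elovl5 (ENSMUSG00000032349, chromosome 9, 77917364 to 77984519, plus strand), which lengthens polyunsaturated fatty acids, was at 31.3, 61.3 and 55.4 CPM in WT libraries 1 to 3. In PKO libraries 1 to 3 it was at 37.0, 41.0 and 37.4 CPM, a narrow range that lay between WT 1 and the other WT libraries. Its log2 fold change was -0.36 ± 0.24 (edgeR adjusted p = 0.481) with all libraries and -0.61 ± 0.12 (edgeR adjusted p = 0.0367) without WT 1.

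The front-end desaturase genes lie together on chromosome 19 and did not vary alike. Fads1 (ENSMUSG00000010663, 10182888 to 10196870, plus strand), the delta-5 desaturase, was at 41.9, 93.4 and 89.96 CPM in WT libraries 1 to 3 and at 56.9, 101 and 77.7 CPM in PKO libraries 1 to 3. It was the only one of the 10 genes with a positive log2 fold change (0.07 ± 0.34, edgeR adjusted p = 0.937), and this turned to -0.23 ± 0.23 without WT 1, to -0.15 without PKO 2 and to -0.037 ± 0.16 without WT 1 and PKO 1. The 95% interval of the log2 fold change ran from -0.73 to 0.86 and so spanned both directions. Fads2 (ENSMUSG00000024665, 10064164 to 10101503, minus strand), the delta-6 desaturase, was at 28.8, 68.9 and 69.0 CPM in WT libraries 1 to 3. It was at 45.1, 50.5 and 37.0 CPM in PKO libraries 1 to 3, between WT 1 and the other WT libraries. Its log2 fold change was -0.33 ± 0.33 (edgeR adjusted p = 0.63), and -0.65 ± 0.15 (edgeR adjusted p = 0.0584) without WT 1.

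Fads3 (ENSMUSG00000024664, 10041548 to 10059671, plus strand), whose product acts on sphingoid bases, differed from the other 9 genes in its order over the WT libraries, with WT 1 the highest. It was at 395, 368 and 348 CPM in WT libraries 1 to 3 and at 326, 293 and 281 CPM in PKO libraries 1 to 3. The groups did not overlap and the spread within each was small, with SDs of 23.9 CPM in WT and 23.0 CPM in PKO (n = 3 each). The mean in PKO came to 81.0% of that in WT (log2 -0.30 ± 0.13, edgeR adjusted p = 0.291). The annotated Fads1 transcripts share no stretch of 25 bases with those of Fads2 or Fads3, and the longest identical stretch of Fads2 and Fads3 has 54 bases.

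**Figure D3:**
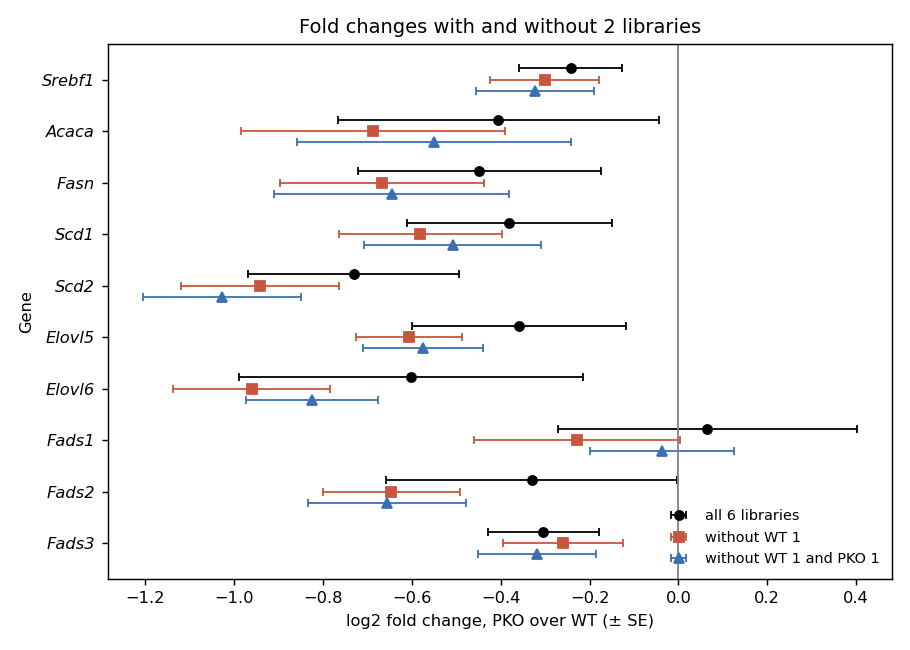
Log2 fold change of PKO over WT with its SE from edgeR for each gene, with all 6 libraries (black), without WT 1 (red) and without WT 1 and PKO 1 (blue). Leaving out WT 1 moves 8 genes further below 0 and takes Fads1 from 0.07 to -0.23, while Fads3 goes from -0.30 to -0.26.

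Per gene length, the deposited FPKM values (fragments scaled to gene length and sequencing depth) put Scd2 first, at 297 ± 78.7 FPKM in WT and 186 ± 24.7 FPKM in PKO (SD, n = 3 each). Scd2 alone made up 38.3% to 48.6% of the summed FPKM of the 10 genes. Fads3 followed at 111 ± 7.02 and 93.5 ± 5.75 FPKM, and the ranges of Scd2, Fads3 and Fasn over the 6 libraries did not overlap. Below Fasn (57.0 ± 16.0 FPKM in WT) each gene's range overlapped that of the next, in the order Scd1, Fads2, Srebf1, Fads1, Elovl5, Elovl6 and Acaca. Scd1 exceeded Fads2 in 4 of 6 libraries and Srebf1 exceeded Fads1 in 4 of 6, so these neighbours were not separated, while Elovl5 exceeded Elovl6 and Elovl6 exceeded Acaca within each of the 6 libraries. Acaca was lowest, at 9.17 ± 3.37 FPKM in WT and 7.20 ± 2.84 FPKM in PKO. This order depends on the gene lengths in the deposited data. Fads2 was given a length of 1508 bases there, against 3295 annotated exon bases. Acaca was given 9513, against 17074, and for the other genes the 2 lengths lay closer together.

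The balance of related enzymes within a library does not depend on library scaling, and 3 such shares of FPKM were compared. Their size does depend on the gene lengths used for FPKM. Scd1 made up 12.1%, 11.3% and 12.2% of Scd1 plus Scd2 in WT libraries 1 to 3 and 12.1%, 16.9% and 15.02% in PKO libraries 1 to 3. The share was higher in PKO 2 and PKO 3, whose stromal markers were high, and at the WT level in PKO 1. The part of stromal cells in this was not tested. The mean difference was 2.80 percentage points, with an exact two-sided permutation p of 0.2 (0.6 adjusted over the 3 shares). Elovl6 made up 42.5 ± 6.08% of Elovl5 plus Elovl6 in WT and 39.7 ± 3.57% in PKO (SD, n = 3 each, exact permutation p = 0.6, adjusted 0.8). Fads3 made up 79.5%, 60.8% and 59.7% of the 3 Fads genes in WT libraries 1 to 3 and 68.3%, 58.8% and 64.7% in PKO libraries 1 to 3, with WT 1 the highest (exact permutation p = 0.8, adjusted 0.8). Its mean difference of -2.74 points changed sign without WT 1, to 3.67 points.

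**Figure D4:**
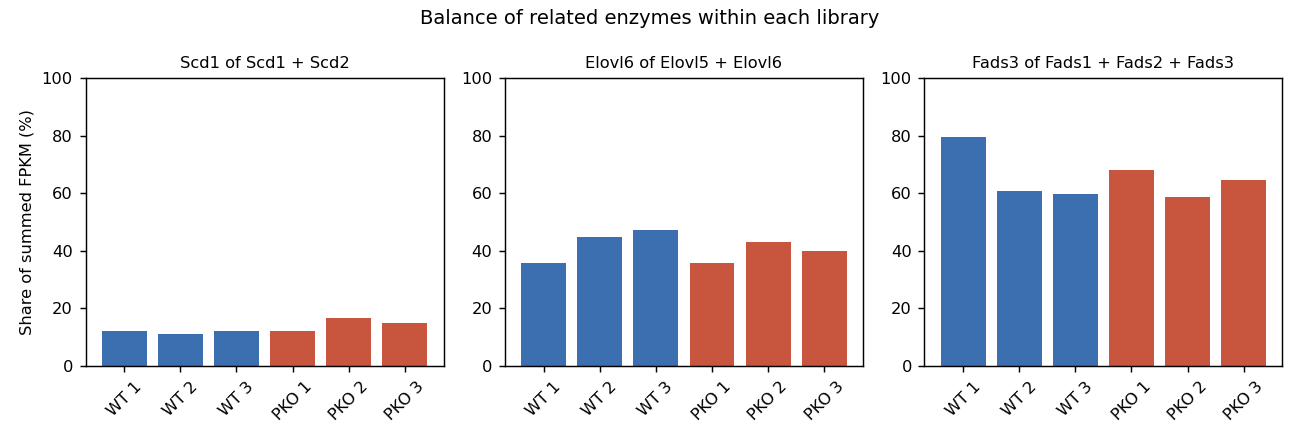
Share of Scd1, Elovl6 and Fads3 in the summed FPKM of their related genes (percent, axis from 0 to 100) in each WT (blue) and PKO (red) library. The Scd1 share is between 11.3% and 12.2% in the WT libraries and PKO 1, and 16.9% and 15.02% in PKO 2 and PKO 3.

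Other genes of the same pathways did not share one direction, apart from the sterol targets of SREBP-2, where all 15 were lower. With edgeR, 0 members of each of the lists below passed an adjusted p of 0.05. At an unadjusted p under 0.05 there were 2 genes higher for synthesis, 1 higher for elongation, 2 higher for desaturation, 0 for mitochondrial synthesis, 1 lower among regulators, 7 lower among sterol targets and 2 higher among LXR targets. Over all genes tested this threshold gave 10.2% higher and 6.35% lower, so the 1 of 11 elongation genes was near the share of all genes. DESeq2 called 1 of 7 listed synthesis genes, 2 of 9 desaturation genes and 2 of 6 LXR targets, all higher, and 0 in the other 4 lists. Of all genes it tested, DESeq2 called 4.73% higher and 0.933% lower. Of 6 tested genes for other enzymes and carriers of fatty acid synthesis 3 were lower and 3 higher, and 2 passed an unadjusted p of 0.05, both higher. Me1, the malic enzyme that supplies NADPH, was at 69.4, 57.8 and 60.5 CPM in WT libraries 1 to 3 and at 86.7, 84.4 and 105 CPM in PKO libraries 1 to 3, with no overlap (log2 0.56 ± 0.14, adjusted p 0.185 in edgeR and 0.031 in DESeq2). Slc25a1, the citrate carrier, was at log2 0.90 ± 0.29 (edgeR adjusted p = 0.223). It was at 20.4 to 23.7 CPM in WT, at 23.5 CPM in PKO 1, and at 51.6 and 49.3 CPM in PKO 2 and PKO 3. PKO 1 thus lay within the WT range, and stromal markers were also high in PKO 2 and PKO 3. The part of stromal cells in the Slc25a1 level was not tested. Acly, which makes cytosolic acetyl-CoA, was at log2 -0.24 ± 0.18 (edgeR adjusted p = 0.515), with WT 1 at 278 CPM below WT 2 and WT 3 at 432 and 391 CPM.

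For the elongation cycle outside the members, 7 of 11 tested genes were lower and 4 higher, with a median log2 fold change of -0.05. The most abundant, Tecr and Hsd17b12, which carry out the last and the second step of each round, were at log2 -0.23 ± 0.20 and -0.06 ± 0.15. Hacd4, listed under the older symbol Ptplad2, had the smallest p (log2 1.27 ± 0.35, edgeR adjusted p = 0.19), at no more than 2.45 CPM in any library. Among other desaturases and their electron carriers, 3 of 7 tested genes were lower and 4 higher. Degs1, the dihydroceramide desaturase, was at 107, 81.6 and 87.4 CPM in WT libraries 1 to 3 and at 128, 134 and 154 CPM in PKO libraries 1 to 3 (log2 0.59 ± 0.14, adjusted p 0.185 in edgeR and 0.0252 in DESeq2). Cyb5a, a cytochrome b5 that passes electrons to desaturases, was at 11.5 to 12.9 CPM in WT, at 14.1 CPM in PKO 1, and at 64.1 and 74.8 CPM in PKO 2 and PKO 3, whose stromal markers were also high (adjusted p 0.19 in edgeR and 0.00195 in DESeq2). The more abundant Cyb5r3 and Cyb5b were at log2 0.01 ± 0.12 and -0.13 ± 0.13. In mitochondrial fatty acid synthesis, a separate pathway that feeds lipoic acid synthesis, 4 of 5 tested genes were lower, among them Ndufab1 at log2 -0.23 ± 0.14 and Mecr at -0.10 ± 0.20, and Mcat was at 0.05 ± 0.17.

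Of 12 tested regulators of SREBP and LXR, 5 were lower and 7 higher (median log2 0.07). Srebf2, the sterol-directed relative of Srebf1, was at 450, 550 and 543 CPM in WT libraries 1 to 3 and at 475, 378 and 335 CPM in PKO libraries 1 to 3 (log2 -0.38 ± 0.17, edgeR adjusted p = 0.325). Insig1, which holds SREBP precursors in the endoplasmic reticulum and is itself an SREBP target, was at log2 -0.42 ± 0.18 (edgeR adjusted p = 0.303). All 15 sterol targets of SREBP-2 had negative log2 fold changes, against 51.7% of all genes tested. Their median was -0.53, with Idi1 at log2 -0.68 ± 0.25 (edgeR adjusted p = 0.268) and Hmgcs1 at log2 -0.53 ± 0.20. Without WT 1, 4 of the 15 fell in edgeR, against 3.32% of all genes then tested, and without WT 1 and PKO 1, 9 fell, against 5.63%. LXR targets outside the members had 4 of 6 higher. The cholesterol exporter gene Abca1 was at 1.36, 0.655 and 1.20 CPM in WT libraries 1 to 3 and at 2.08, 15.5 and 11.03 CPM in PKO libraries 1 to 3 (adjusted p 0.184 in edgeR and 0.000241 in DESeq2). Abcg1 was at no more than 0.458 CPM in WT and at 0.586, 5.98 and 3.03 CPM in PKO libraries 1 to 3 (adjusted p 0.192 in edgeR and 0.00471 in DESeq2). Both were highest in PKO 2 and PKO 3, as the stromal markers were, and the part of stromal cells in this was not tested. The more abundant LXR targets Arl4c and Lpcat3 were at log2 -0.14 ± 0.27 and -0.16 ± 0.10.

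The lists differed in their medians by library. The median of the 10 genes relative to the WT mean (log2 CPM) was -0.55, 0.33 and 0.28 in WT libraries 1 to 3 and -0.40, -0.12 and -0.48 in PKO libraries 1 to 3. WT 1 was the lowest of the 6 libraries by this median, as it was in 4 of the 10 single genes. In the lists of other synthesis, elongation and desaturation genes the median of WT 1 (0.03, 0.02 and 0.07) was above those of WT 2 and WT 3. Cell cycle genes had medians of -1.33, 0.67 and 0.69 in WT libraries 1 to 3 and of -0.95, -1.24 and -0.66 in PKO libraries 1 to 3, with Mki67, Top2a and Rrm2 the most abundant. They were low in the same 4 libraries as the 10 genes, and the part of cell cycling in the levels of the 10 genes was not tested. Stromal markers had medians of -0.05, -0.20 and 0.20 in WT and of 0.84, 4.47 and 4.66 in PKO libraries 1 to 3, led by Col1a1, Col1a2 and Col3a1. With PKO 2 and PKO 3 left out, the median log2 fold change of the 10 genes was -0.45.

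**Figure D5:**
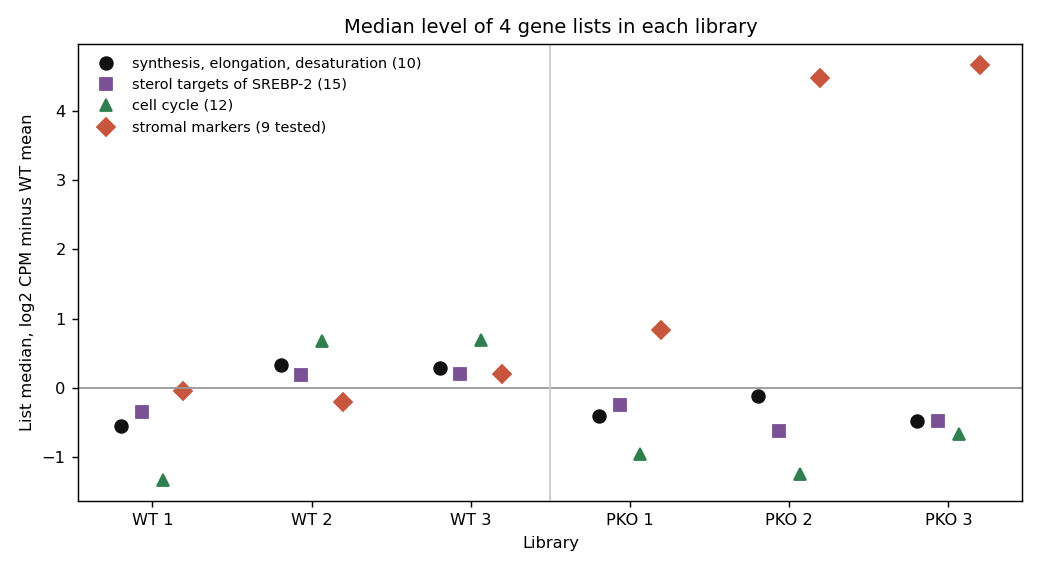
Median of log2 CPM minus the WT mean over the tested genes of 4 lists in each library, with lists offset sideways for legibility. The 10 genes, the sterol targets and the cell cycle genes are below 0 in WT 1 and in all PKO libraries, and the stromal markers are above 4 in PKO 2 and PKO 3 only.

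The genes closest to Scd2 over the 6 libraries were Mfsd2a, Tfdp2 and Rfx7, out of 12895 protein-coding genes compared. Likeness was the root mean square difference of log2 CPM after centring each gene on its own mean, which was 0.04 for Mfsd2a, 0.07 for Tfdp2 and 0.08 for Rfx7. Mfsd2a was at 30.8, 52.9 and 53.2 CPM in WT libraries 1 to 3 and at 31.5, 27.4 and 22.1 CPM in PKO libraries 1 to 3. Of the other 9 fatty acid genes Fasn was nearest to Scd2, at a difference of 0.21 and place 292, and Fads1 was farthest, at 0.53 and place 7108.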

How the data were processed

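Polyadenylated RNA of 6 libraries (3 WT, 3 PKO, grouped by sample title) was sequenced. Per the series text and the submitters' processing notes, paired reads of 150 bp were filtered, mapped with TopHat2 to GRCm38 (mm10) and counted with HTSeq 0.6.1. The authors deposited raw read counts, whole numbers for each gene and library, and FPKM values computed from them by the authors. The authors' log2 fold changes and p-values come from DESeq2 or edgeR (the series text names both). No columns of other samples were present. Replicate libraries did not hold identical counts.

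Tests used edgeR 4.0.16 in R 4.3.3 on the counts (filterByExpr, TMM, robust quasi-likelihood, genotype as the only term), with Benjamini-Hochberg adjustment over 14025 genes. SEs are derived from the fold change and F statistic, and log2 CPM used a prior count of 2. Alternatives were DESeq2 1.42.0, limma-voom (limma 3.58.1), other scalings and filters, a replicate block and left-out libraries. The fit was tested on simulated data with genes raised in PKO. At the dispersion estimated from these libraries it recovered 36 of 100 genes raised 2-fold and 88 of 100 raised 4-fold, with 15 false calls. At a low set dispersion it recovered 94 and 100, with 9 false calls. Changes of less than 2-fold were not simulated. Shares of FPKM were compared with exact permutation tests. Named genes are all members, 2 genes by p and 2 by level per pathway list, the 3 most abundant markers per cell type list, and the 3 profiles nearest to the member with the smallest p. Further genes named for context (the markers Lum, Dpt, Pi16, Adipoq, Plin1, Lep, Emcn, Pax7 and Myf5) were chosen after their values were seen. The members and lists were chosen with earlier results of these data known.

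Depth was 15580176 to 18839151 counts per library. Promoter sequences are RefSeq's (GRCm38.p6) and exon overlaps and transcripts GENCODE's (M21).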

Additional observations from a re-analysis of the deposited data

How the results depend on the processing

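The number of genes called among all tested, 0 in edgeR with all libraries, was 917 with DESeq2 (766 higher, 151 lower), 1 with the replicate block and 2266 without WT 1 and PKO 1. It ran from 0 to 1000 when single libraries were left out (1000 without WT 1, 737 without PKO 1). At an unadjusted p under 0.05 edgeR had 2317 genes. Of the 10 genes, 0 to 3 were called when single libraries were left out, 3 without WT 1 and 3 without WT 1 and PKO 1. The cause was not tested. Fads1 turned negative without WT 1 and PKO 1 (-0.037) and without PKO 2 and PKO 3 (-0.40, 1 PKO library, assumed to vary like the others), and ran from -0.23 to 0.25 with single libraries left out. The other 9 genes stayed negative in all 16 alternatives. Their median with Fads1 ran from -0.63 to -0.27 with single libraries left out. The Fads3 share difference reversed to 1.503 points without WT 1 and PKO 1 and ran from -6.21 to 3.67 points with single libraries left out. With single libraries left out the Pnpla2 level in PKO was 36.9% to 50.6% of WT (27.2% without PKO 2 and PKO 3), and the Scd1 and Elovl6 share differences were 1.71 to 4.08 and -6.28 to -0.49 points. The replicate block called 0 of the 10 genes. Same-numbered libraries deviated with correlations of 0.10, -0.03 and 0.13, so the numbers were not taken as pairs. Read depth limits none of the 10 genes, each with at least 488 reads per library, but 3 libraries per group limit every test.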
